A study of Mus musculus with 16 samples.

Results

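The 40 genes described here are *Myc* and a listed set of genes for transcription of ribosomal RNA (rRNA), processing of its precursor and assembly of ribosomal subunits. They were taken by symbol after matching the Ensembl identifiers, without version, of a table of 49585 genes. All 40 were found in the table, and 39 of them were among the 12559 genes with enough counts to be tested. *Wdr74*, a nucleolar protein of large subunit maturation, was listed at 0 counts in all 16 cultures. A count of 0 allows a level of up to 0.538 to 1.41 CPM (counts scaled to a common library size), depending on the culture and covering counting error only. The gene is known to be broadly expressed, and *Exosc6* and *Mrpl53* of the related lists below were also at 0 in every culture. If reads of these genes were lost before or during counting, this bound does not limit their level, and which step left them without counts was not tested.

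RNA sequencing was done on small intestinal organoids, which are cultures of epithelium grown from crypts in Matrigel. Both genotypes were cultured untreated and treated, at 4 cultures per group, the treatment being recombinant murine IL-22 at 10 ng/ml for 24 h. The fl/fl organoids carry floxed *Atg16l1* alleles and no Cre. The ΔIEC organoids carry the same alleles together with Cre under the villin promoter, which is active in intestinal epithelial cells, so that Cre itself and the loss of *Atg16l1* cannot be told apart. The donors were littermate mice of 8 to 12 weeks on a C57BL/6 background, and stimulation began 3 to 6 days after passage. Each genotype is represented by 2 organoid lines, and each line gave 2 cultures per treatment. Replicates 1 and 2 of every group are line 1293 (fl/fl) or line 1290 (ΔIEC), and replicates 3 and 4 are line 1294 or line 1292. Values per culture below are in this order. Genotype and organoid line cannot be told apart, and cultures of a line are not independent. Counts on genes were 3478243, 4024054, 2135000 and 3673205 in untreated fl/fl cultures, and 2704302, 4606507, 5574860 and 3437907 in IL-22–treated fl/fl cultures. In ΔIEC organoids they were 3976507, 3847890, 2347992 and 2268697 untreated, and 2573720, 3562967, 3369717 and 3520310 with IL-22.

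Ribosome production starts in the nucleolus, where RNA polymerase I transcribes a long precursor of most rRNA. Small nucleolar ribonucleoproteins (snoRNPs) guide the cleavage and chemical modification of this precursor, and helicases, GTPases and scaffold proteins fold it with ribosomal proteins into a small and a large subunit. MYC is a well-known activator of many of these genes, and the fast-dividing crypt cells of the intestine have a high demand for new ribosomes.

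The labels were first checked on *Atg16l1* itself. Its level, in CPM after scaling of the libraries by the trimmed mean of M-values, was 40.2 ± 7.24 (mean ± SD, n = 4) in untreated fl/fl cultures and 45.0 ± 6.33 with IL-22. In ΔIEC cultures it was 2.67 ± 1.20 and 1.84 ± 2.76. The highest ΔIEC culture, IL-22 replicate 2 at 5.96 CPM, lay below the lowest fl/fl culture at 31.6 CPM. All 8 epithelial markers examined, such as *Epcam* and *Krt8*, had counts in every culture. Immune, stromal and endothelial markers were low but not all absent. *Cd3e*, *Dcn* and *Cdh5* were at 0 in every culture, whereas *Csf1r* (mean 8.96 CPM), *Cd52* (2.86), *Cd68* (2.65) and *Pecam1* (1.47) had counts in all 16 cultures, and *Lyz2* and *Itgam* in all but 1.

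In untreated organoids, ΔIEC cultures had higher levels of many of these genes than fl/fl cultures. Of the 39 tested members, 11 rose past the threshold, an adjusted p under 0.01 in the edgeR test over all genes, and all 11 had each of the 4 ΔIEC cultures above each of the 4 fl/fl cultures, as did 10.6% of all tested genes. These 11 were picked by a call on the same values, so their separation is no further support. The share of all tested genes called higher was 3.78%. No member was called lower, neither in edgeR nor in DESeq2, beside 5.98% of all tested genes, and of the 28 members with an unadjusted p under 0.05 all were higher, where 34.2% of all tested genes had such a p. The median log2 fold change of the members was 0.32, against -0.02 over all tested genes, and 38 of 39 members lay above 0, *Myc* being the exception. The genes that rose were *Tcof1*, *Bop1*, *Heatr1*, *Nhp2*, *Mrto4*, *Dkc1*, *Ncl*, *Ddx21*, *Nop58*, *Nop2* and *Mybbp1a*, and they cover rRNA transcription, both snoRNP classes and both subunits. This count depends on single cultures and lines. It was 5 without fl/fl replicate 1, 4 without fl/fl replicate 2, 3 without ΔIEC replicate 1, 7 without ΔIEC replicate 2 and 5 without ΔIEC replicate 3, all untreated. Without whole lines it was 3 (line 1290), 1 (line 1293, where only *Nhp2* was called) and 17 (line 1294). With the cultures of each line summed, which leaves 2 lines against 2, no member was called at this threshold. In that setting 22 members had an unadjusted p under 0.05, and 3 higher and 7 lower genes were called in the whole table. The share of all tested genes with such a p there is not given here, so these 22 are no further support.

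With IL-22, the same comparison of genotypes called 22 of 39 members higher, beside 9.91% of all tested genes. Again no member was called lower in edgeR or DESeq2, beside 9.84% of all tested genes, and all 32 members with an unadjusted p under 0.05 were higher, where 44.0% of all tested genes had such a p. The median was 0.42 against 0.01 over all tested genes, and all 39 members lay above 0, where *Myc* at 0.01 was just below 0 with RLE scaling and in DESeq2 and at 0.05 with library totals. The 22 genes hold all 11 called in untreated organoids, together with *Npm1*, *Nolc1*, *Utp4*, *Utp20*, *Rrp12*, *Pes1*, *Wdr12*, *Rrs1*, *Ddx18*, *Gnl3* and *Grwd1*. These 11 further genes are not shown to differ more between genotypes with IL-22 than without it: the interaction of genotype and IL-22 ranged from 0.08 for *Rrp12* to 0.34 for *Rrs1*, and none passed. Replicate 1 of the IL-22–treated ΔIEC cultures stands apart from its line mate: their chi-square per gene, which measures how far the counts of a pair lie apart, was 6.83, against 1.33 to 3.33 for every other pair of the same line and treatment. It also lies farther from replicates 3 and 4 (10.8 and 8.68) than replicate 2 does (6.77 and 4.24). It has the highest level of all cultures for *Ncl*, *Npm1*, *Nop58*, *Ddx21*, *Mrto4* and *Gnl3*, among others. Without it 21 members were called. Without line 1290 the count was 11. With the cultures of a line summed it was 0, with 56 higher and 132 lower calls in the whole table and a median over members of 0.43. In that setting 28 members had an unadjusted p under 0.05. The share of all tested genes with such a p there is not given here, so these 28 are no further support. These organoids are mixtures of cell types, and fewer cells of a type and less RNA per cell cannot be told apart.

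Few members passed the threshold with IL-22. In fl/fl organoids 1 of 39 members fell, *Npm1*, against 10.2% of all tested genes called lower. None was called higher, against 10.6% of all genes, in edgeR or in DESeq2. At an unadjusted p under 0.05 there were 8 members, of which 2 were higher, beside 41.9% of all tested genes. The median was -0.06 beside -0.05 over all tested genes. Leaving out untreated fl/fl replicate 3 gave 2 calls, with *Heatr1* higher, leaving out untreated replicate 4 or IL-22 replicate 1 of fl/fl or line 1290 gave 2, with *Nop10* lower, and without line 1294 there were 0. With the organoid line as a block, 5 members passed: *Npm1*, *Nop10*, *Fbl* and *Dkc1* lower and *Heatr1* higher. The share of all tested genes that passed with this block is not given here, and the 10.2% and 10.6% belong to the fit without it. The move from 1 to 5 is therefore not read as a result about the members. No member passed with the cultures of each line summed. In ΔIEC organoids 0 members were called in either direction by edgeR or DESeq2, where 9.83% of all tested genes were called higher and 7.65% lower. At an unadjusted p under 0.05 there were 4, beside 38.4% of all tested genes, and the median was 0.02 beside -0.01. Leaving out IL-22 replicate 1 of ΔIEC gave 1 call, *Npm1* lower, and leaving out line 1294 gave 1 call, *Rrs1* higher. Scaling by library totals alone moved the median of all genes in ΔIEC organoids from -0.01 to -0.12. The share of calls that were higher then moved from 51.0% to 37.3% for IL-22 in fl/fl, from 56.2% to 35.1% for IL-22 in ΔIEC and from 38.7% to 61.4% for genotype in untreated organoids.

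The interaction, which is the IL-22 effect in ΔIEC minus that in fl/fl organoids, was called for 0 of 39 members in edgeR and in DESeq2, beside 0.00796% of all tested genes in each direction. In the whole table it had 1 higher and 1 lower call, and 0 higher and 1 lower with library totals. Only *Rrs1* and *Polr1a* had an unadjusted p under 0.05, at 0.34 and 0.29, and 7.26% of all tested genes did. The median over members was 0.08 beside 0.03 over all tested genes. The comparisons of genotype and of IL-22 share cultures, so their values are given side by side and not as separate support.

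**Figure D1:**
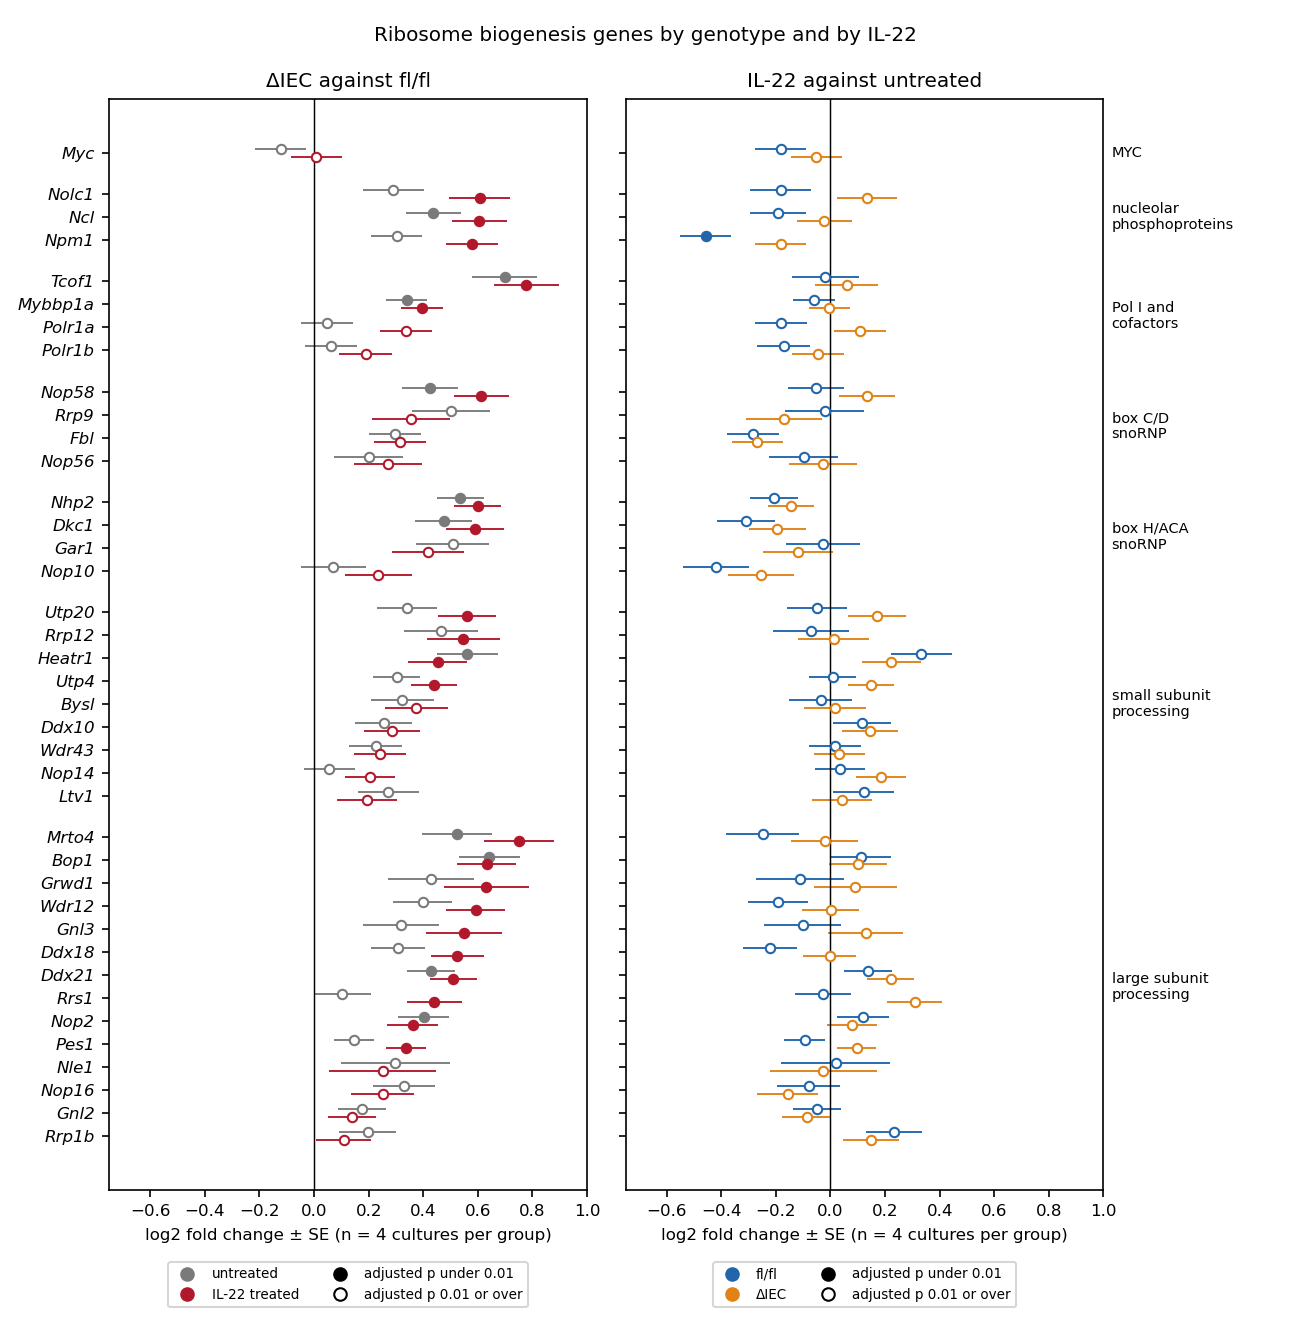
Log2 fold change with its standard error for each of 39 tested genes, ΔIEC against fl/fl at left (untreated grey, IL-22 red) and IL-22 against untreated at right (fl/fl blue, ΔIEC orange), by role, n = 4 cultures per group. At left 38 (untreated) and 39 (IL-22) values lie above 0, with 11 and 22 filled as called, and at right only *Npm1* in fl/fl is filled.

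*Myc* (ENSMUSG00000022346.15, chr15:61985391-61990374, plus strand; all positions are in GRCm38), which encodes the transcription factor that pairs with MAX on E-box sequences, passed in no comparison. Its level was 169, 152, 186 and 192 CPM in untreated fl/fl cultures and 158, 154, 148 and 156 CPM with IL-22. ΔIEC cultures had 167, 150.4, 161 and 164 CPM untreated and 128, 145, 179.8 and 166 CPM with IL-22. The 4 groups overlap, and both the lowest and the highest culture of the ΔIEC organoids are IL-22–treated ones from different lines. The log2 fold change with IL-22 was -0.18 (SE 0.09, adjusted p = 0.147) in fl/fl and -0.05 (SE 0.09, adjusted p = 0.734) in ΔIEC. Between genotypes it was -0.12 (SE 0.09, adjusted p = 0.382) untreated and 0.01 (SE 0.09, adjusted p = 0.955) with IL-22. The last value changed sign, to -0.01, in DESeq2, with RLE scaling and under the stricter count filter, and was 0.05 with library totals.

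The nucleolar phosphoproteins are abundant chaperones and RNA-binding proteins of the nucleolus. *Npm1* (ENSMUSG00000057113.13, chr11:33152287-33163206, minus strand), nucleophosmin, escorts ribosomal proteins and histones. Its level was 637, 681, 762 and 779 CPM in untreated fl/fl cultures and, with IL-22, 549.6, 554, 485 and 493 CPM. In ΔIEC organoids it was 902, 869.6, 845 and 909.6 CPM untreated and 953, 758, 688 and 709.8 CPM with IL-22. In fl/fl every IL-22–treated culture lies below every untreated one, in ΔIEC the treatments overlap, and at each treatment all ΔIEC cultures lie above all fl/fl cultures. *Npm1* fell with IL-22 in fl/fl by 0.46 on the log2 scale (SE 0.09, adjusted p = 0.000961), and its value in ΔIEC was -0.18 (SE 0.09, adjusted p = 0.163). The interaction, 0.27 (SE 0.13, adjusted p = 0.692), does not show that the effects differ. Without line 1294 the value in fl/fl was -0.26 with an adjusted p of 0.171, and once both cultures per line had been added together it was -0.46 with 0.0469. Among untreated organoids the difference of ΔIEC from fl/fl was 0.30 (SE 0.09, adjusted p = 0.0281). Among those given IL-22 it was 0.58 (SE 0.09, adjusted p = 0.000161).

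*Ncl* (ENSMUSG00000026234.12, chr1:86344719-86359400, minus strand) encodes nucleolin, which binds the nascent rRNA precursor. Levels were 822, 855, 1019 and 953 CPM untreated and 831, 777, 761 and 825 CPM with IL-22 in fl/fl cultures. The ΔIEC cultures stood at 1363, 1261, 1191 and 1119.8 CPM untreated and 1529, 1136, 1102 and 1095 CPM with IL-22. All 8 ΔIEC cultures lie above all 8 fl/fl cultures. The genotype difference was 0.44 (SE 0.10, adjusted p = 0.00504) untreated and 0.61 (SE 0.10, adjusted p = 0.000197) with IL-22, whereas IL-22 gave -0.19 (SE 0.10, adjusted p = 0.16) in fl/fl and -0.02 (SE 0.10, adjusted p = 0.9) in ΔIEC. The untreated call was lost without fl/fl replicate 1 or 2 or without ΔIEC replicate 1, 2 or 3, and without line 1290 or 1293. *Nolc1*, a chaperone of snoRNPs, was higher in ΔIEC with IL-22 by 0.61 (SE 0.11, adjusted p = 0.000445), a call lost without line 1290. Its value was 0.29 untreated (adjusted p = 0.0733) and its interaction 0.32 (adjusted p = 0.71).

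Of the 4 genes of rRNA transcription, *Tcof1* (ENSMUSG00000024613.16, chr18:60813755-60848971, minus strand) encodes treacle, a nucleolar scaffold that recruits RNA polymerase I to rRNA genes; its per-culture values, and those of *Nhp2*, *Bop1*, *Ddx21*, *Mybbp1a*, *Nop2*, *Nop58* and *Mrto4*, are shown because they were called, a choice made after their values were seen. *Tcof1* measured 38.9, 47.5, 58.9 and 65.5 CPM untreated and 48.7, 49.1, 51.2 and 58.1 CPM with IL-22 in fl/fl cultures. In ΔIEC cultures it measured 79.9, 81.5, 92.5 and 88.1 CPM and, with IL-22, 85.1, 84.4, 91.6 and 93.8 CPM. Every ΔIEC culture lies above every fl/fl culture, and within untreated fl/fl organoids line 1293 lies below line 1294. *Tcof1* had the largest genotype differences of the members, 0.70 (SE 0.12, adjusted p = 0.000569) untreated and 0.78 (SE 0.12, adjusted p = 8.38e-05) with IL-22, and the untreated call was lost without line 1292 or line 1293.

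*Mybbp1a*, a nucleolar cofactor of rRNA synthesis and processing, had 210.4, 193, 244 and 241 CPM untreated and 201, 219, 211 and 220.2 CPM with IL-22 in fl/fl cultures. In ΔIEC it had 280.3, 283, 279 and 279 CPM and 287, 297, 258 and 277 CPM. All ΔIEC cultures lie above all fl/fl cultures, with a difference of 0.34 (SE 0.08, adjusted p = 0.00386) untreated and 0.40 (SE 0.08, adjusted p = 0.00062) with IL-22. The untreated call did not survive leaving out any 1 of the ΔIEC cultures, either culture of line 1293, or line 1290, 1292 or 1293. With IL-22 it was lost without line 1290.

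*Polr1a* and *Polr1b*, the catalytic subunits of RNA polymerase I, passed in no comparison. *Polr1a* had 59.0, 64.1, 63.5 and 68.2 CPM untreated and 52.7, 58.2, 53.3 and 60.5 CPM with IL-22 in fl/fl cultures. ΔIEC cultures had 68.8, 74.1, 57.5 and 61.1 CPM and 62.0, 77.8, 68.3 and 74.7 CPM. The untreated groups overlap and the IL-22–treated ones do not, and the genotype values were 0.05 untreated and 0.34 (SE 0.10, adjusted p = 0.0107) with IL-22, just outside the threshold. *Polr1b* had 43.8, 40.8, 51.2 and 52.2 CPM untreated and 39.2, 39.0, 41.5 and 46.4 CPM with IL-22 in fl/fl, and 49.3, 48.7, 49.1 and 48.2 CPM and 48.2, 51.1, 42.6 and 47.5 CPM in ΔIEC cultures. Here the groups overlap in every comparison, and the genotype values were 0.06 and 0.19 (adjusted p = 0.692 and 0.136).

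Box C/D snoRNPs methylate the ribose of rRNA at sites chosen by their guide RNA. *Fbl* encodes fibrillarin, their methyltransferase, and had 123, 118, 124 and 158 CPM untreated and 116, 98.2, 106 and 111 CPM with IL-22 in fl/fl cultures. In ΔIEC it had 157, 159.9, 163 and 164 CPM and 127, 155, 120.0 and 133 CPM. In both genotypes every IL-22–treated culture lies below every untreated one, but neither -0.28 (SE 0.10, adjusted p = 0.0279) in fl/fl nor -0.27 (SE 0.09, adjusted p = 0.0406) in ΔIEC passed. With the line as a block the value in fl/fl was -0.29 with an adjusted p of 0.00529, which does. This call was lost with the cultures of a line summed. Between genotypes the values were 0.30 untreated and 0.31 with IL-22 (adjusted p = 0.0322 and 0.0164), where untreated fl/fl replicate 4 reaches the ΔIEC cultures.

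*Nop58*, a core scaffold of these particles, had 138, 128, 155 and 143 CPM untreated and 134, 132, 133 and 145 CPM with IL-22 in fl/fl cultures. ΔIEC cultures had 203, 195, 187 and 172 CPM and 266, 199.7, 177 and 192 CPM. All ΔIEC cultures lie above all fl/fl cultures, and *Nop58* rose with genotype by 0.43 (SE 0.10, adjusted p = 0.00636) untreated and 0.61 (SE 0.10, adjusted p = 0.000187) with IL-22. The untreated call was lost without fl/fl replicate 1, 2 or 4, without ΔIEC replicate 1, 2 or 3, and without line 1290 or 1293. Its partner *Nop56* had 97.0, 107, 151 and 154 CPM untreated and 109, 106, 118 and 140.2 CPM with IL-22 in fl/fl, and 149, 145, 151 and 135 CPM and 156, 143, 133 and 139 CPM in ΔIEC. Untreated cultures of line 1293 are low and those of line 1294 reach the ΔIEC cultures, with replicate 4 above all untreated ones, and neither 0.20 untreated nor 0.27 with IL-22 passed. *Rrp9*, which belongs to the particle of the first precursor cleavages, had genotype values of 0.50 and 0.35 (adjusted p = 0.0173 and 0.0618).

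Box H/ACA snoRNPs convert uridine to pseudouridine in rRNA. *Nhp2* (ENSMUSG00000001056.3, chr11:51619735-51623714, plus strand), a core protein of these particles, had 88.8, 93.9, 96.6 and 91.0 CPM untreated and 89.5, 83.9, 74.5 and 73.4 CPM with IL-22 in fl/fl cultures. In ΔIEC cultures it had 135, 128, 139.5 and 134 CPM and 119, 139, 106 and 121 CPM. No ΔIEC culture overlaps the fl/fl cultures. *Nhp2* had the smallest adjusted p of the members in both genotype comparisons, 0.54 (SE 0.09, adjusted p = 0.00029) untreated and 0.60 (SE 0.09, adjusted p = 4.32e-05) with IL-22. Both calls held when any 1 culture or line was left out, which still takes cultures of a line as separate samples. Both were lost in edgeR with the cultures of a line summed (adjusted p = 0.0507 untreated and 0.0160 with IL-22).

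*Dkc1* (ENSMUSG00000031403.14, chrX:75095854-75109777, plus strand), dyskerin, is the pseudouridine synthase of the same particles. Its levels were 68.4, 79.4, 87.9 and 84.3 CPM untreated and 64.9, 58.4, 66.3 and 68.0 CPM with IL-22 in fl/fl cultures. In ΔIEC cultures they were 113, 106, 111 and 114 CPM and 114, 102, 75.9 and 96.7 CPM. The ΔIEC cultures lie above the fl/fl cultures at each treatment, with IL-22 replicate 3 of ΔIEC closest to them. The genotype differences were 0.47 (SE 0.10, adjusted p = 0.00345) untreated and 0.59 (SE 0.11, adjusted p = 0.000346) with IL-22. IL-22 gave -0.31 (SE 0.11, adjusted p = 0.0317) in fl/fl, where treated and untreated cultures do not overlap, and -0.19 (SE 0.10, adjusted p = 0.175) in ΔIEC. The untreated call was lost without fl/fl replicate 1 or 2, without ΔIEC replicate 1, 3 or 4 and without line 1290 or 1293, and the call with IL-22 without line 1290.

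*Nop10*, the smallest core protein of the class, had 74.5, 84.0, 75.3 and 62.1 CPM untreated and 68.1, 53.3, 49.4 and 52.4 CPM with IL-22 in fl/fl, and 76.6, 67.7, 80.4 and 87.6 CPM and 72.5, 73.3, 58.9 and 56.1 CPM in ΔIEC cultures. The treated and untreated cultures overlap in both genotypes. Its IL-22 value was -0.42 (SE 0.12, adjusted p = 0.0118) in fl/fl, just outside the threshold, and -0.26 (SE 0.12, adjusted p = 0.126) in ΔIEC, and its genotype values were 0.07 and 0.24. *Gar1* had genotype values of 0.51 and 0.42 (adjusted p = 0.0108 and 0.0201). All 4 genes of this class had IL-22 values below 0 in both genotypes, the median being -0.26 for fl/fl and -0.17 for ΔIEC organoids. None of them passed as reported, but with the line as a block *Nop10* (-0.41, adjusted p = 0.00152) and *Dkc1* (-0.32, adjusted p = 0.00553) were lower in fl/fl. Neither passed with the cultures of a line summed.

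Of the 9 genes of small subunit processing, 1 rose with genotype in untreated and 4 in IL-22–treated organoids, beside 3.78% and 9.91% of all tested genes. *Heatr1*, a large scaffold that binds the precursor early and is needed for its transcription, had 38.6, 43.1, 57.1 and 47.3 CPM untreated and 57.4, 55.4, 60.1 and 59.0 CPM with IL-22 in fl/fl. In ΔIEC it had 76.2, 64.0, 69.6 and 61.5 CPM and 92.3, 81.0, 71.0 and 74.4 CPM. All ΔIEC cultures lie above the fl/fl cultures of the same treatment. The genotype differences were 0.56 (SE 0.11, adjusted p = 0.00175) untreated and 0.45 (SE 0.11, adjusted p = 0.00324) with IL-22, and the IL-22 values 0.33 (SE 0.11, adjusted p = 0.0282) in fl/fl and 0.22 (SE 0.11, adjusted p = 0.131) in ΔIEC, where the first passed with the line as a block (0.33, adjusted p = 0.00519). That IL-22 value did not pass with the cultures of a line summed. The untreated genotype call was lost without ΔIEC replicate 1, line 1290 or line 1293. With IL-22 it was lost without fl/fl replicate 2, without ΔIEC replicate 1 or 2, and without line 1290 or 1293.

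*Utp4*, a partner of *Heatr1* in the same early complex, rose with genotype in IL-22–treated organoids by 0.44 (SE 0.08, adjusted p = 0.000602), and *Utp20*, a scaffold of the processing particle, by 0.56 (SE 0.11, adjusted p = 0.000628). *Rrp12*, which takes part in late maturation and export, rose by 0.55 (SE 0.13, adjusted p = 0.00414). Their untreated values were 0.30, 0.34 and 0.46, with adjusted p of 0.0171, 0.0327 and 0.0201. The IL-22–treated call of *Utp4* was lost without line 1290, that of *Utp20* without line 1293, and that of *Rrp12* without fl/fl replicate 1, ΔIEC replicate 1 or 2, line 1290 or line 1293.

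The remaining genes of this role passed in no comparison. *Ltv1*, a factor bound to the late small subunit, had 36.8, 47.7, 48.1 and 53.5 CPM untreated and 54.6, 52.1, 51.8 and 44.0 CPM with IL-22 in fl/fl, and 59.7, 54.9, 59.1 and 50.7 CPM and 60.8, 61.6, 59.8 and 49.8 CPM in ΔIEC cultures. Its groups overlap in every comparison, and the genotype values were 0.27 and 0.19. For *Bysl*, *Ddx10*, *Wdr43* and *Nop14* the genotype values were 0.32, 0.26, 0.23 and 0.06 untreated, and 0.38, 0.29, 0.24 and 0.21 with IL-22. The median IL-22 value of the 9 genes was 0.02 in fl/fl and 0.15 in ΔIEC organoids.

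Of the 14 tested genes of large subunit processing, 4 rose with genotype in untreated and 10 in IL-22–treated organoids, beside 3.78% and 9.91% of all tested genes. *Bop1* (ENSMUSG00000022557.10, chr15:76452989-76477277, minus strand) is the hub of a complex with *Pes1* and *Wdr12* that is needed to process the large subunit rRNA. It had 56.4, 57.4, 59.4 and 59.4 CPM untreated and 65.3, 68.2, 56.1 and 62.0 CPM with IL-22 in fl/fl cultures. In ΔIEC cultures it had 97.1, 96.2, 87.7 and 80.2 CPM and 85.1, 118, 80.4 and 104 CPM. The fl/fl cultures are close to each other, and all ΔIEC cultures lie above them, with IL-22–treated ones spread more widely. *Bop1* rose with genotype by 0.64 (SE 0.11, adjusted p = 0.000569) untreated and 0.63 (SE 0.11, adjusted p = 0.000244) with IL-22, the untreated call being lost without line 1290 or 1293. Its partners *Pes1* and *Wdr12* rose in IL-22–treated organoids, by 0.34 (SE 0.07, adjusted p = 0.00169) and 0.59 (SE 0.11, adjusted p = 0.000377). Untreated they had 0.15 and 0.40 (adjusted p = 0.167 and 0.0128). The *Pes1* call was lost without line 1290, 1292 or 1294.

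*Mrto4*, which holds a place on the large subunit that a stalk protein later takes, had 39.7, 40.8, 44.0 and 48.2 CPM untreated and 28.9, 33.4, 41.5 and 39.9 CPM with IL-22 in fl/fl. In ΔIEC it had 66.3, 67.9, 57.1 and 54.8 CPM and 78.2, 58.2, 55.6 and 54.1 CPM. All ΔIEC cultures lie above all fl/fl cultures, and the genotype differences were 0.52 (SE 0.13, adjusted p = 0.00712) untreated and 0.75 (SE 0.13, adjusted p = 0.000243) with IL-22. *Nop2*, a methyltransferase of large subunit rRNA, had 53.2, 55.1, 61.7 and 63.9 CPM untreated and 66.5, 60.5, 60.3 and 67.1 CPM with IL-22 in fl/fl, and 75.2, 81.7, 78.8 and 72.3 CPM and 77.0, 95.2, 72.5 and 80.4 CPM in ΔIEC. The ΔIEC cultures again lie above all fl/fl cultures. *Nop2* rose by 0.40 (SE 0.09, adjusted p = 0.00515) untreated and 0.36 (SE 0.09, adjusted p = 0.00541) with IL-22. The untreated calls of *Mrto4* and *Nop2* were both lost without fl/fl replicate 1 or 2, without ΔIEC replicate 1, 2 or 3, and without line 1290 or 1293, that of *Mrto4* also without fl/fl replicate 3 and that of *Nop2* without line 1292. With IL-22 the call of *Nop2* was lost without fl/fl or ΔIEC replicate 2, fl/fl replicate 3, ΔIEC replicate 4, or any 1 line.

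*Ddx21*, an RNA helicase with roles in rRNA transcription and processing, had 211, 207, 248 and 243 CPM untreated and 245, 260.1, 239.7 and 254 CPM with IL-22 in fl/fl. In ΔIEC it had 327, 315, 299.98 and 277 CPM and 420.0, 332, 329 and 344 CPM. All ΔIEC cultures lie above all fl/fl cultures, and IL-22 replicate 1 of ΔIEC is the highest of all. Genotype gave 0.43 (SE 0.09, adjusted p = 0.00209) untreated, lost without fl/fl replicate 2, ΔIEC replicate 1, line 1290 or line 1293, and 0.51 (SE 0.09, adjusted p = 0.000216) with IL-22. *Ddx18*, a related helicase, had 44.7, 49.8, 64.4 and 49.0 CPM untreated and 43.9, 41.8, 45.4 and 45.2 CPM with IL-22 in fl/fl, and 66.5, 66.7, 57.9 and 62.3 CPM and 65.6, 59.4, 62.6 and 66.6 CPM in ΔIEC. Only untreated fl/fl replicate 3 reaches the ΔIEC cultures. Its genotype value was 0.31 (SE 0.10, adjusted p = 0.0307) untreated and 0.52 (SE 0.10, adjusted p = 0.000475) with IL-22, the call being lost without line 1292.

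*Rrs1*, which helps to place a small ribosomal RNA in the large subunit, rose with genotype in IL-22–treated organoids by 0.44 (SE 0.10, adjusted p = 0.00256) and had 0.10 untreated, and its IL-22 value in ΔIEC was 0.31 (SE 0.10, adjusted p = 0.0279). *Gnl3*, the GTPase nucleostemin, and *Grwd1*, a chaperone of a ribosomal protein, rose in the same comparison by 0.55 (SE 0.14, adjusted p = 0.0051) and 0.63 (SE 0.16, adjusted p = 0.00421). These 3 calls were each lost without line 1290 or 1293 and without at least 1 single culture. *Rrp1b*, a nucleolar protein bound to large subunit precursors, had 51.4, 47.7, 64.4 and 60.2 CPM untreated and 63.3, 60.1, 69.1 and 68.6 CPM with IL-22 in fl/fl, and 69.3, 55.6, 63.9 and 66.0 CPM and 67.2, 72.1, 64.4 and 77.8 CPM in ΔIEC cultures. Its groups overlap throughout. *Nop16*, *Nle1*, *Gnl2* and *Rrp1b* had genotype values of 0.33, 0.30, 0.18 and 0.20 untreated and 0.25, 0.25, 0.14 and 0.11 with IL-22, and passed in no comparison.

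**Figure D2:**
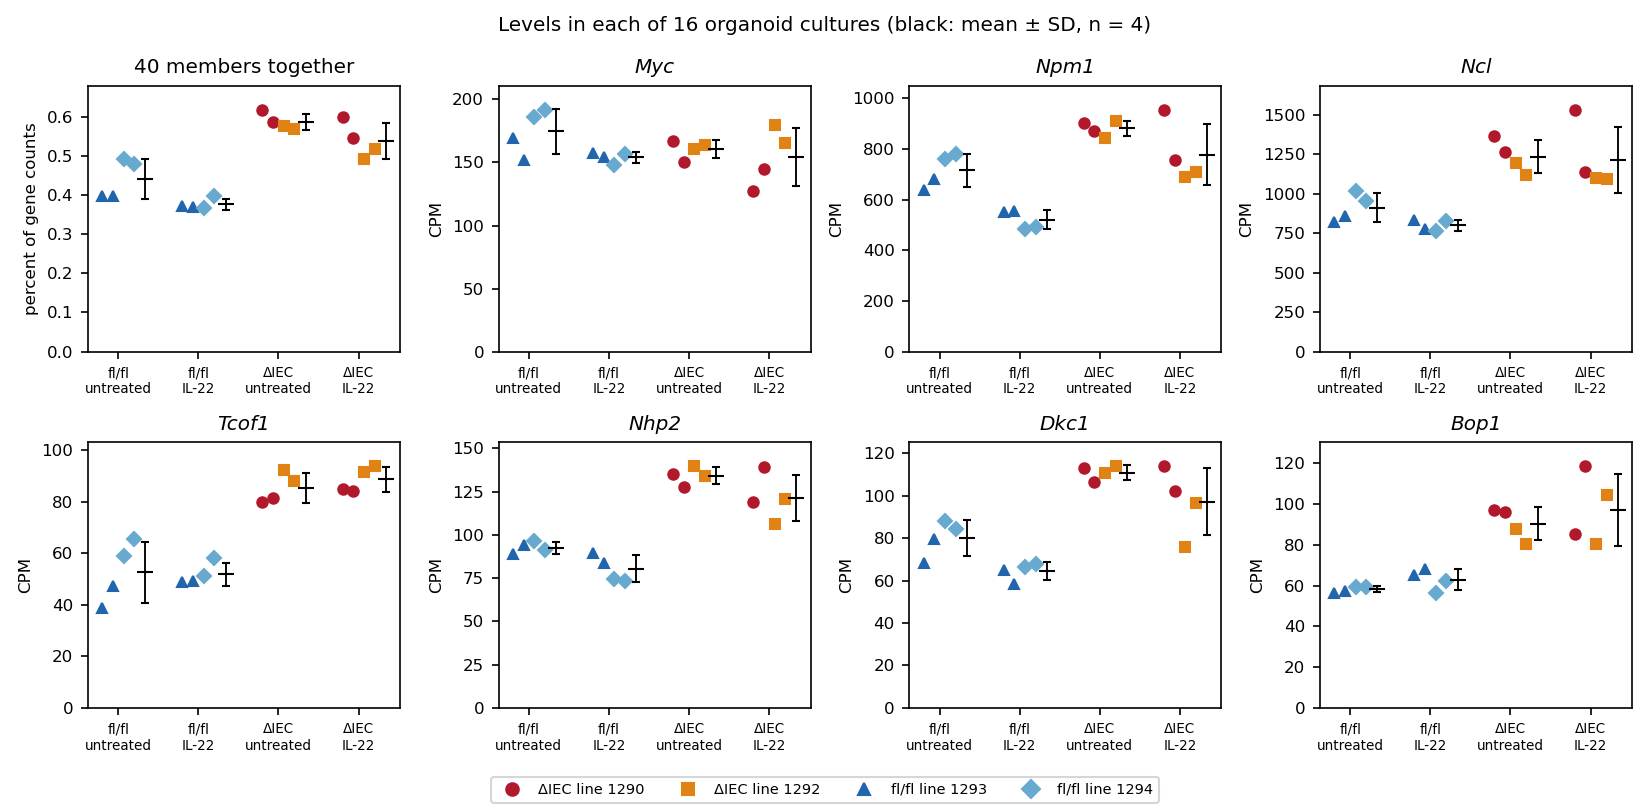
Levels in each of 16 cultures, as percent of gene counts for all 40 genes together and as CPM for 7 of them, marked by organoid line, with mean ± SD per group (n = 4). For *Ncl*, *Tcof1*, *Nhp2* and *Bop1* all ΔIEC cultures lie above all fl/fl cultures, and for *Myc* the groups overlap. All drawn genes other than *Myc* had been called with genotype on these same values, so their separation is no further support. *Tcof1*, *Nhp2* and *Bop1* were chosen after their values were seen.

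The separation of the cultures was counted without a test as well. Untreated, 23 of 39 members had all 4 ΔIEC cultures above all 4 fl/fl cultures, beside 10.6% of all tested genes, and 29 had both ΔIEC line means above both fl/fl line means, beside 25.8%. With IL-22 the counts were 25, beside 15.4%, and 37, beside 31.5%. Across the 39 members the genotype effects untreated and with IL-22, which use different cultures of the same 4 lines, had a Pearson r of 0.75 and a Spearman rho of 0.75, and over all tested genes r was 0.80. The IL-22 effects in fl/fl and ΔIEC had r = 0.65 and rho = 0.61 across members, and over all tested genes r was 0.86. Genes are not independent replicates.

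Line by line, the median difference of the members between an untreated ΔIEC line and an untreated fl/fl line was 0.45 (1290 minus 1293), 0.24 (1290 minus 1294), 0.42 (1292 minus 1293) and 0.20 (1292 minus 1294). Line 1293 therefore lies farther below both ΔIEC lines than line 1294 does. With IL-22 the same medians were 0.50, 0.51, 0.34 and 0.30. Treatment with IL-22 moved the median member by -0.00 in line 1293, -0.17 in line 1294, 0.05 in line 1290 and 0.00 in line 1292. In fl/fl, 6 members were above the untreated level in both lines and 18 below it in both, beside 34.6% and 43.0% of all tested genes. In ΔIEC these counts were 15 and 7, beside 36.4% and 39.2%. Over all 4 lines, 5 members were above and 5 below, beside 25.9% and 29.3%.

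As a share of all counts on genes, the 40 genes together made up 0.398, 0.399, 0.493 and 0.48% in untreated fl/fl cultures and 0.373, 0.369, 0.366 and 0.397% with IL-22. In ΔIEC cultures they made up 0.618, 0.587, 0.578 and 0.57% untreated and 0.599, 0.547, 0.493 and 0.518% with IL-22. The ΔIEC cultures lie above the fl/fl cultures of the same treatment. Compared per kilobase of exon, the median member stood at 21.5 CPM per kb, against 7.42 CPM per kb for the median tested gene, and 34 of 39 members lay above that median. The highest levels per kb were those of *Npm1* at 271.5, *Ncl* at 102 and *Nhp2* at 93.5 CPM per kb, and the lowest was *Wdr12* at 3.61 CPM per kb.

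Other genes of ribosome production were counted in lists of their own. Among all tested genes, 3.78% were higher and 5.98% lower with genotype untreated, and 9.91% and 9.84% in IL-22–treated organoids. With IL-22 these shares were 10.6% and 10.2% in fl/fl and 9.83% and 7.65% in ΔIEC. The genotype counts of these lists take the cultures of a line as separate samples. With the cultures of each line summed, the whole table had fewer higher calls untreated than several single lists have here. The untreated list counts therefore cannot all hold with lines as samples. Between IL-22–treated genotypes the whole table also had far fewer calls. Of 18 other genes of RNA polymerase I and its factors, 5 rose with genotype in untreated and 5 in IL-22–treated organoids (medians 0.14 and 0.34), and *Ubtf*, the upstream binding factor, was among them in both, at 0.41 and 0.47. With IL-22 *Polr1c*, a subunit shared by polymerases I and III, fell in fl/fl (-0.57, SE 0.12, adjusted p = 0.000972), and in ΔIEC no gene of the list was called by edgeR or DESeq2, with 2 at an unadjusted p under 0.05. Of 49 other small subunit processing genes, 5 and 19 rose with genotype (medians 0.21 and 0.31), and of 51 other large subunit processing genes 6 and 15 (medians 0.25 and 0.28). With IL-22, *Imp3* and *Utp6* fell in fl/fl (-0.42 and -0.43) and *Nop9* rose in ΔIEC (0.40). *Eif6* and *Sbds*, which act on the last step that frees the large subunit, rose with IL-22 in both genotypes, by 0.62 and 0.56 in fl/fl and by 0.63 and 0.48 in ΔIEC. *Efl1*, the GTPase of that step, rose in ΔIEC by 0.43, and *Nop53* fell in fl/fl by 0.34.

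Of 13 snoRNP assembly genes, 1 and 5 rose with genotype (medians 0.19 and 0.39; DESeq2 called 2 and 4), and of 14 tested RNA exosome genes, which trim the precursor, 3 and 6 (medians 0.30 and 0.38). Neither list had a call with IL-22 by edgeR or DESeq2; at an unadjusted p under 0.05 they had 4 and 5 genes in fl/fl and 1 and 2 in ΔIEC. Of 22 RNA polymerase III genes, none was called with genotype in untreated organoids by either tool, with 3 at an unadjusted p under 0.05, and 2 rose with genotype in IL-22–treated ones, beside 9.91% of all tested genes. With IL-22 *Gtf3a* fell in both genotypes (-0.43 in fl/fl and -0.42 in ΔIEC) and *Polr3d* rose in fl/fl (0.47).

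The genes of ribosomal proteins themselves had few calls with genotype. Of 78 tested cytosolic ribosomal protein genes, 1 fell with genotype in untreated organoids and 1 rose in IL-22–treated ones (medians -0.11 and -0.01). DESeq2 called 5 lower between untreated genotypes, and 1 lower and 0 higher between IL-22–treated ones. At an unadjusted p under 0.05 there were 20 lower and 0 higher untreated, and 4 lower and 3 higher between IL-22–treated genotypes. The response to IL-22 itself was called lower for 25 in fl/fl and 2 in ΔIEC (medians -0.25 and -0.15), beside 10.2% and 7.65% of all tested genes. DESeq2 called 28 and 10, and 63 and 31 were lower at an unadjusted p under 0.05, so that the counts of 25 and 2 depend on the tool and do not show a contrast of genotypes. Examples are *Rpl3* (-0.49), *Rpl14* (-0.32) and *Rps3a1* (-0.41) in fl/fl and *Rps19* (-0.31) and *Rpl30* (-0.28) in ΔIEC.

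Of 77 mitochondrial ribosomal protein genes, 2 and 20 rose with genotype (medians 0.18 and 0.25), where DESeq2 called 2 and 14. With IL-22, 6 fell in fl/fl and 1 in ΔIEC, beside 10.2% and 7.65% of all tested genes, and DESeq2 called 1 and 0. They include *Mrps9* in both (-0.31 and -0.30) and *Mrpl49* (-0.54) and *Mrpl30* (-0.35) in fl/fl. Of 14 tested snoRNA host genes without a protein product, 2 and 3 fell with genotype (medians -0.44 and -0.33), and *Zfas1* fell with IL-22 in fl/fl (-0.55). The mean deviation of the host genes from the average of all cultures (log2 scale) differed between fl/fl lines. With IL-22 it was -0.33 and -0.19 in line 1293 and 0.39 and 0.42 in line 1294, against -0.31 to -0.16 in ΔIEC cultures. In this mean, the difference between IL-22–treated genotypes thus rests on line 1294. In ΔIEC no host gene was called with IL-22 by edgeR or DESeq2, with 2 at an unadjusted p under 0.05.

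Of 12 genes of the wider MYC network, 2 rose and 1 fell with IL-22 in fl/fl, beside 10.6% and 10.2% of all tested genes. In ΔIEC 2 rose and 2 fell, beside 9.83% and 7.65%. *Mxd1*, which pairs with MAX in place of MYC and represses transcription, rose by 1.50 (SE 0.21, adjusted p = 2.15e-05) in fl/fl and 1.47 (SE 0.21, adjusted p = 2.84e-05) in ΔIEC, from 56.3 ± 18.9 to 160.2 ± 19.1 CPM and from 58.5 ± 15.03 to 159.8 ± 43.3 CPM, and no treated culture reached down to an untreated one. *Mlx* rose by 0.47 and 0.49. *Mycn* fell by 2.04 in fl/fl, from 3.07 ± 1.30 to 0.659 ± 0.226 CPM, and in ΔIEC *Mycl* fell by 0.62 and *Mlxipl* by 1.15. With genotype, 1 of the 12 network genes rose and 1 fell at each treatment (medians 0.07 and 0.08): *Mycl* rose (0.52) and *Mlxipl* fell (-1.01) untreated, and *Max* rose (0.49) and *Mlxipl* fell (-1.91) between IL-22–treated genotypes, named after their values were seen. Of 20 other known MYC targets, 8 rose with genotype in untreated organoids, and 13 rose and 1 fell in IL-22–treated ones (medians 0.27 and 0.39). Of all tested genes, 3.78% were higher untreated, and 9.91% higher and 9.84% lower between IL-22–treated genotypes. With the cultures of each line summed, the whole table had fewer higher calls untreated than this list alone. The 8 untreated calls therefore cannot all hold with lines as samples. With IL-22, 1 of the 20 targets rose and 7 fell in fl/fl, and 2 rose and 4 fell in ΔIEC (medians -0.26 and -0.13). *Ldha* rose in both (0.30 and 0.25) and *Shmt2* in ΔIEC (0.38), while *Shmt1* fell in both (-0.54 and -0.60), *Umps* (-0.77) and *Hspe1* (-0.53) in fl/fl, and *Tfrc* (-0.45) and *Paics* (-0.52) in ΔIEC.

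Impaired ribosome assembly is known to stabilise p53, so its targets were listed too. Of 18, 2 fell with genotype in untreated organoids, and 2 rose and 2 fell in IL-22–treated ones (medians -0.37 and -0.04), beside 5.98% of all tested genes lower untreated and 9.91% higher and 9.84% lower between IL-22–treated genotypes. DESeq2 called 2 lower untreated, and 2 higher and 4 lower between IL-22–treated genotypes. The response to IL-22 was called for 2 in fl/fl (DESeq2 3 higher and 1 lower) and 3 in ΔIEC (DESeq2 2 higher), beside 10.6% and 9.83% of all tested genes. *Mdm2* and *Sesn2* rose in fl/fl (0.41 and 0.47) and in ΔIEC (0.43 and 0.55), and *Bax* in ΔIEC (0.33). For the interaction no gene of any of these lists was called in edgeR, so a call in 1 genotype alone is not shown to be a difference between genotypes, and the lists were not tested for it in DESeq2. At an unadjusted p under 0.05, which 7.26% of all tested genes had for the interaction, the higher and lower genes numbered 7 and 0 of 25 for proliferation, 5 and 0 of 18 for p53 targets, 6 and 0 of 49 for small subunit and 2 and 1 of 51 for large subunit processing, and 4 and 0 of 78 for cytosolic and 3 and 0 of 77 for mitochondrial ribosomal proteins. They were 2 and 0 of 13 for snoRNP assembly, 2 and 0 of 20 for MYC targets, 0 and 1 of 12 for the MYC network, 0 and 1 of 18 for polymerase I, 1 and 0 of 22 for polymerase III, 1 and 0 of 14 for snoRNA hosts and 0 and 0 of 14 for the exosome.

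**Figure D3:**
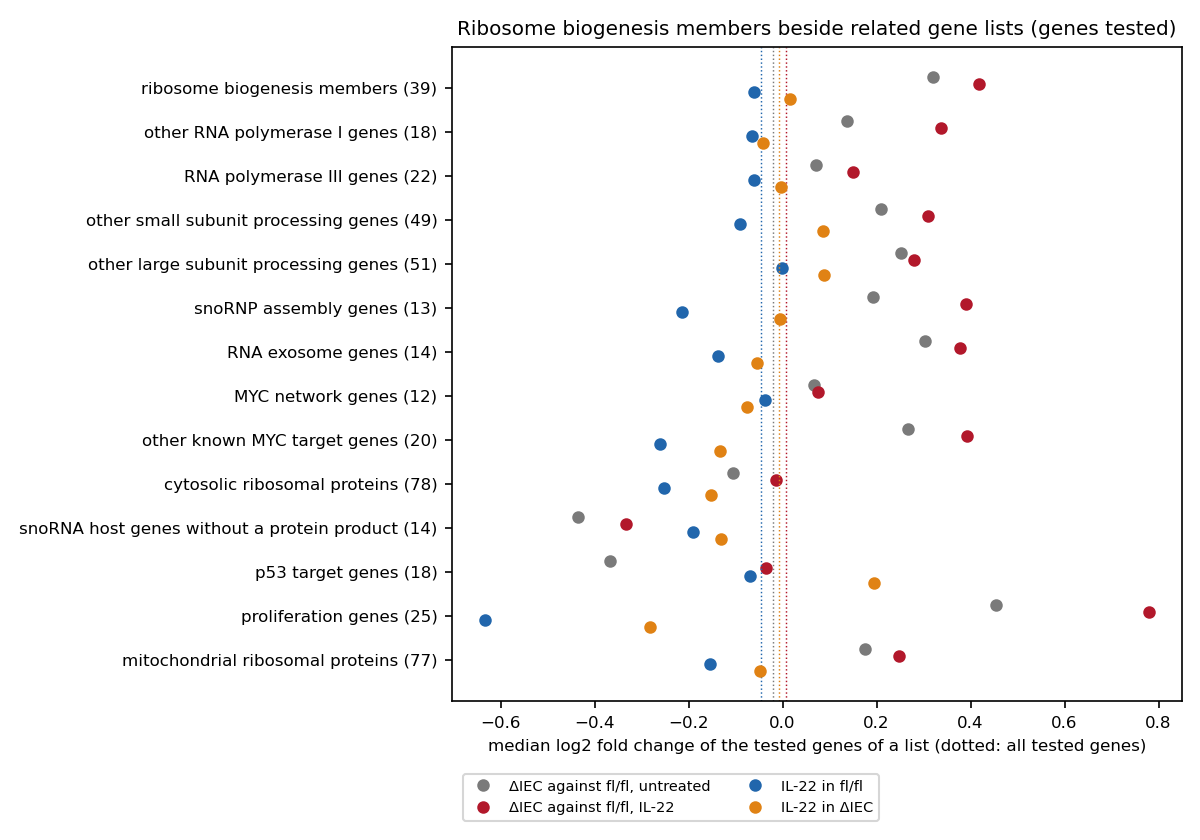
Median log2 fold change of the tested genes of each list in 4 comparisons, with the number tested in brackets and the medians of all tested genes as dotted lines. Cell type markers are not drawn, and of the lists drawn proliferation genes have the largest medians, 0.45 and 0.78 with genotype and -0.63 and -0.28 with IL-22, and the 39 ribosome biogenesis genes stand at 0.32, 0.42, -0.06 and 0.02.

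Proliferation genes moved with genotype beside the members. Of 25, 9 rose in untreated and 22 in IL-22–treated ΔIEC organoids, whereas with IL-22 21 fell in fl/fl and 8 in ΔIEC, for example *Mcm6* (-0.91), *Mcm7* (-0.90) and *Ccnb2* (-0.77) in fl/fl and *Mcm7* (-0.69), *Tk1* (-0.62) and *Pcna* (-0.42) in ΔIEC. Of all tested genes, 3.78% and 9.91% were higher with genotype, and 10.2% and 7.65% lower with IL-22. With the cultures of each line summed, the whole table had fewer higher calls between untreated genotypes than this list alone. The 9 untreated calls therefore cannot all hold with lines as samples. The summed level of the 25 genes was 2492, 2630.3, 3571 and 3507 CPM in untreated fl/fl cultures and 1997, 1705, 2207 and 2089 CPM with IL-22. In ΔIEC it was 4217, 4072, 4005 and 3920.0 CPM and 3627, 3429.8, 2957 and 3122 CPM. Line 1293 lies below line 1294 among untreated fl/fl cultures, as it does for the members' share of counts. *Pcna* had the highest level per kb of the list (108 CPM per kb), and no gene of it was at 0. The part of these genes in the members' result was not tested.

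Markers of differentiated cells moved with genotype as well, where 5.98% (untreated) and 9.84% (IL-22) of all tested genes were called lower. Of 8 Paneth cell markers, 5 fell in untreated and 7 in IL-22–treated ΔIEC organoids, and their summed level was 8130.5, 7508, 5953 and 5699.6 CPM untreated and 9599, 8807, 7879 and 7131 CPM with IL-22 in fl/fl, and 3322, 3197, 4193 and 4033 CPM and 4544, 3920.0, 4687 and 4021 CPM in ΔIEC. Of 8 goblet cell markers, 4 and 5 fell, with sums of 3360.3, 3346, 2128 and 2209 CPM and 3048, 3064, 2267 and 2058 CPM in fl/fl, and 1517, 1578, 2021 and 1966 CPM and 1057, 1086, 1726 and 1471 CPM in ΔIEC. Of 8 enteroendocrine markers, 2 and 4 fell, with sums of 595, 629.8, 371 and 387 CPM and 711, 637, 525 and 564 CPM in fl/fl, and 221, 285, 376 and 365 CPM and 247, 264, 499 and 427 CPM in ΔIEC. The Paneth sums are lower in every ΔIEC culture than in any fl/fl culture. *Defa24* led the Paneth markers per kb (5408 CPM per kb), *Tff3* the goblet markers (924) and *Chgb* the enteroendocrine markers (109).

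Of 8 stem cell markers, 3 rose with genotype in untreated organoids, and 3 rose and 1 fell between IL-22–treated genotypes. The response to IL-22 was called lower for 4 in fl/fl and 6 in ΔIEC, and higher for none in edgeR, nor was any higher at an unadjusted p under 0.05. Their sums were 2004, 2194, 2427 and 2198 CPM and 1301, 1211, 1158 and 1146 CPM in fl/fl, and 2803, 2570.5, 2729 and 2828 CPM and 1491, 1215, 1400.2 and 1224 CPM in ΔIEC. Untreated ΔIEC cultures lie above untreated fl/fl cultures in this sum, and IL-22–treated ones overlap. The markers did not all move the same way, and *Olfm4* makes most of the untreated difference, with 144 CPM in fl/fl and 584 CPM in ΔIEC. *Lgr5* (101 and 68.7 CPM) and *Igfbp4* (225 and 207 CPM) were lower in ΔIEC without passing untreated. *Olfm4*, *Ascl2* and *Smoc2* rose at both treatments, and *Lgr5* fell between IL-22–treated genotypes (-0.86). Of 8 enterocyte markers, 1 and 3 rose, with sums of 3335, 3017, 3273 and 2923 CPM and 1098, 1281, 839 and 878 CPM in fl/fl, and 3681, 3608, 3453 and 3059.8 CPM and 1593, 1593, 995 and 981 CPM in ΔIEC. Epithelial markers had sums of 9622, 8702, 7128 and 7383 CPM and 12221, 13417, 11313 and 11397 CPM in fl/fl, and 6877, 7565, 8695 and 8355 CPM and 8388, 9105, 12079 and 11364 CPM in ΔIEC, and 1 of 8 fell with genotype, in IL-22–treated organoids. Highest per kb were *Slc12a2* (98.1 CPM per kb), *Fabp1* (522) and *Krt8* (1523), and no marker of these 6 cell types was at 0. Tuft, immune and stromal or endothelial markers had 3, 4 and 0 tested genes, group means of summed levels of at most 26.9, 22.2 and 2.38 CPM, and no call with genotype in edgeR; at an unadjusted p under 0.05 there were 0 tuft genes, and 1 immune gene untreated and 2 with IL-22. The part of cell composition in the members' result was not tested.

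Promoters of the members, called or not, were read from the RefSeq table of build GRCm38.p6, which gives 250 bases before and 50 bases after each start. It holds 32 of the 40 members. The E-box CACGTG, which reads the same on both strands and is known to be bound by MYC with MAX, was present in 9 of 32 (28.1%), beside 8.09% of the promoters of all 27025 genes and 12.01% of 9290 tested genes. With the related CACGCG and its reverse complement CGCGTG counted too, 16 of 32 (50.0%) held 1 of the 3, beside 29.5% of tested genes. Of the members called higher with genotype under IL-22, 6 of 17 with a promoter held CACGTG, and of the other tested members 3 of 14. The median number of CG dinucleotides was 20 in members and 22 in tested genes. A match describes letters only, and these promoters were not tested for binding. The 3 promoters shown are those of the members with the smallest p for IL-22 in fl/fl that hold the E-box, which is in capitals, written 5′ to 3′ on the strand of the gene: *Pes1* on the plus strand at chr11:3963725-3964024, *Nop2* on the plus strand at chr6:125131633-125131932 and *Ltv1* on the minus strand at chr10:13193088-13193387. Counted from the first base after the 250, the E-box begins at base 2 downstream in *Pes1*, 60 bases upstream in *Nop2* and 28 bases downstream in *Ltv1*.
Pes1: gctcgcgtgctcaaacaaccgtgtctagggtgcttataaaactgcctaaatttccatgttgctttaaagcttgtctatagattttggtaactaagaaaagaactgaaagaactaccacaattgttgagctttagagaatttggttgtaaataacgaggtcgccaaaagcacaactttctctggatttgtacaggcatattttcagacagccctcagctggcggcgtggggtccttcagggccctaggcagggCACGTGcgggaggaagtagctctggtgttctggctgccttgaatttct
Nop2: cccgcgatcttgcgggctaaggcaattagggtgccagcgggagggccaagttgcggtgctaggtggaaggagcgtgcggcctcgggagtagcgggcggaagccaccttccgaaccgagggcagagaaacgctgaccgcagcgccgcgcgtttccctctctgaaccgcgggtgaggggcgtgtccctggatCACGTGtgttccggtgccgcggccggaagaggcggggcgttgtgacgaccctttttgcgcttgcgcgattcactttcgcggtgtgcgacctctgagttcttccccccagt
Ltv1: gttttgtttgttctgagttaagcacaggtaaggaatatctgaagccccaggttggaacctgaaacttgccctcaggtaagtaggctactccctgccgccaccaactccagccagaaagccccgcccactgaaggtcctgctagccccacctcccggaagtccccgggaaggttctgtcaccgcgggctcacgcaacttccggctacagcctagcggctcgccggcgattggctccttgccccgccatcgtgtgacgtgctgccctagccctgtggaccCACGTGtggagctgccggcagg

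Several members are hosts of small nucleolar RNAs. The annotation places 19 snoRNAs within the spans of 6 members, and 12 of them had 0 counts in every culture. The other 7 together had 41 counts over all cultures, 10 and 23 in untreated and IL-22–treated fl/fl cultures and 5 and 3 in ΔIEC cultures. No snoRNA had more than 4 counts in a culture, and these totals, which are not scaled for depth, were not tested. Some members share bases with a gene on the opposite strand, and since the labels name an unstranded TruSeq RNA v2 kit while the methods name a stranded one, and no strand setting is given, reads in shared bases may have gone to either gene or to neither. The longest shared stretches are those of *Pes1* with 4930556J24Rik (12804 bases of the gene span), *Polr1a* with Gm26628 (2631), *Bop1* with *Scx* (2007), *Nop14* with Gm15522 (1760), *Rrp9* with *Parp3* (987), *Polr1a* with Gm19078 (946) and *Heatr1* with *Lgals8* (875). The partner genes had 1117, 212, 4, 623, 611, 0 and 2912 counts over all cultures, beside 7199, 3510, 4201, 3184, 1467, 3510 and 3412 for the members.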

How the data were processed

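The authors trimmed paired-end reads with cutadapt, aligned them to GRCm38 (mm10) with TopHat2 and used HTSeq to count reads on each gene, and the table they deposited holds raw counts without normalization. Versions, annotation release and strand setting are not stated. All 16 columns were mapped to samples by title, leaving 0 columns not mapped. Counts on genes were 2135000 to 5574860 per culture, 36.3% to 38.3% of all counts in the table, and the 5 summary lines that name no gene (61.7% to 63.7%) were used for depth only. Of 49585 identifiers, 49326 matched the annotation without version.

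Genes were filtered by filterByExpr over the 4 groups (12559 kept), scaled by TMM and tested with edgeR 4.0.16 in R 4.3.3: two-sided quasi-likelihood tests on 1 fit of 4 group means, Benjamini-Hochberg over all tested genes, threshold 0.01. SE is the absolute log2 fold change over the root of F. Log2 CPM used a prior count of 2. The biological coefficient of variation was 0.115. The steps were tested on simulated data.

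Members and lists (other polymerase I and III genes, other small and large subunit processing, snoRNP assembly, exosome, MYC network and targets, cytosolic and mitochondrial ribosomal proteins, snoRNA hosts, p53 targets, proliferation and cell type markers) were chosen with earlier results of these data known. Values per culture are given for *Myc* and for the 2 members of each role with the smallest p for IL-22 in fl/fl, and for 8 called members added after. From lists, genes called with IL-22 are named, at most 3 per direction and genotype. *Riok2*, *Snhg4* and *Snhg7* had no match.

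Whether lines pair cultures was checked across genes on deviations from group means: between treated and untreated cultures r was 0.26 to 0.44 within fl/fl lines and -0.43 to -0.22 across them, and in ΔIEC 0.06 to 0.32 and -0.35 to -0.08. No line has both genotypes, hence blocking by line was possible for IL-22 effects and the interaction alone. Alternatives were DESeq2 1.42.0, RLE scaling, library totals, no filter, at least 10 counts in every culture, thinning to the smallest library, only the compared groups, cultures of a line summed, the line as block, limma-voom 3.58.1 with correlation within lines (0.261), an adjusted p under 0.05, and leaving out each culture and line. Protein composition was not analysed here.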

Additional observations from a re-analysis of the deposited data

Results flagged for a closer look

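In 92 groups of 4 cultures, from the 21 genes whose cultures are shown, the members' share of gene counts and their mean deviation, 4 held a culture far from its nearest neighbour relative to the range of the group, and chance gives about 1 in 20 groups. *Ncl* was highest in IL-22–treated ΔIEC replicate 1, at 1529 CPM, with the next culture at 1136 CPM. *Fbl* was highest in untreated fl/fl replicate 4, at 158 CPM, with the next at 124 CPM. *Ltv1* was lowest in IL-22–treated ΔIEC replicate 4, at 49.8 CPM, with the next at 59.8 CPM. *Nop58* was highest in IL-22–treated fl/fl replicate 4, at 145 CPM, with the next at 134 CPM.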

How the results depend on the processing

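Members called with IL-22 in fl/fl (1 as reported) numbered 3 with library totals, 2 without a filter, 2 with at least 10 counts in every culture, 2 after thinning, 0 with cultures of a line summed, 5 with the line as replicate block, 3 with limma-voom and 5 at an adjusted p under 0.05; leaving out 1 culture or line gave 0 to 2. The median of members was -0.14 with library totals (all genes -0.12) and -0.14 to 0.0011 over the left-out cultures and lines. For IL-22 in ΔIEC (0 as reported) the count was 1 with library totals (*Fbl* lower), 2 at an adjusted p under 0.05 and 0 to 1 when leaving out, and the median -0.10 with library totals (all genes -0.12) and 0.00 to 0.04 when leaving out. Genotype in untreated organoids (11) gave 18 with library totals, 6 after thinning, 0 with lines summed, 21 at an adjusted p under 0.05 and 1 to 17 when leaving out, with medians of 0.21 to 0.43. With library totals the calls over all genes also moved toward higher in this comparison, as given above. For most settings the share of all tested genes called is not given beside the counts of members. Changes in these counts are therefore not read as results about the members. Genotype with IL-22 (22) gave 0 with lines summed and 11 to 24 when leaving out, with medians of 0.34 to 0.47. The interaction gave 0 throughout, with medians of 0.02 to 0.16. *Myc* between genotypes with IL-22 changed sign in DESeq2 (-0.0066), with RLE scaling (-0.0079), with at least 10 counts in every culture (-0.0068) and when leaving out (-0.20 at the lowest), and *Myc* with IL-22 in ΔIEC ranged from -0.25 to 0.0892 when leaving out, never called. Members above the untreated level in every line numbered 2 with library totals in place of 5, 2 in place of 6 for fl/fl and 5 in place of 15 for ΔIEC. The promoter share was 50.0% with the 2 further motifs. Over 30 settings, 33 members lay above 0 between genotypes in each setting untreated and 37 with IL-22, and no setting called a member lower. Leaving out 1 culture, 3 untreated and 16 IL-22–treated genotype calls held every time. Counts of calls in the related lists stayed the same in 2623 cases and moved in 549. The cause of these changes was not tested. With 2 lines per genotype, a difference between lines cannot be told apart from one between genotypes, and depth limits most the thinner libraries, where the smallest has 2135000 counts.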
